A study of Homo sapiens with 6 samples.

Results

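RAB GTPases are the largest family of small GTPases that direct vesicle traffic, and their mRNAs were followed here in PC-3 cells, a line derived from a bone metastasis of human prostate adenocarcinoma, with and without an inducible transgene for tristetraprolin (TTP). The members are the symbols made of RAB, a number and at most 1 further letter that carry a protein-coding RefSeq name. There were 59 of them among 18974 protein-coding symbols of the deposited table, and 45 had a mean FPKM (fragments scaled to transcript length and library size) of at least 1 over the groups, as did 11606 of all protein-coding symbols. Both groups were PC-3 cells that had received the pRetroX-Tet-On-Advanced retrovirus (rtTA2) under G418 selection and then a retrovirus with tdTomato driven by the PGK promoter, for which the cells were sorted. The control virus was pRetroX-Tight-pPGK-tdTomato (tdTom, 3 samples), and the other was pRetroX-Tight-TTP-pPGK-tdTomato (TTP-tdTom, 3 samples). All 6 samples were collected after 4 hours in 300 ng/ml doxycycline (Dox), which switches the Tight promoter on through rtTA2, so that Dox was common to both groups. The table holds 1 FPKM value per group and locus. The spread between the 3 samples of a group can therefore not be given, no test was made, and whether a given difference is larger than that spread cannot be read from these values. In such bulk samples fewer cells of a kind and less RNA per cell cannot be told apart.

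RAB proteins cycle between a GTP-bound form on membranes and a GDP-bound form that is drawn into the cytosol. Exchange factors load GTP, activators with a TBC domain speed its hydrolysis, escort proteins and a geranylgeranyl transferase add the lipid anchor, and effectors bound to the GTP form tether, move or fuse the vesicle. Each RAB marks a membrane, such as RAB1 on the path from the endoplasmic reticulum (ER) to the Golgi, RAB5 on early endosomes, RAB7 on late endosomes and RAB11 on recycling endosomes. TTP, the product of ZFP36, binds AU-rich elements in the 3′UTR of mRNAs and delivers them to decay, and the heptamer UAUUUAU is at the core of such elements. The FPKM of ZFP36 was 5.56 in tdTom cells and 5.54 in the cells labelled TTP-tdTom, and every direction below is that of the labels. It was not tested if this locus takes up reads of the transgene, so that these values do not check the labels, and the study's qRT-PCR and immunoblots of TTP in these cells were not analysed here. Of the epithelial markers, EPCAM, KRT8, KRT18 and KRT19 had an FPKM between 15.1 and 98.2 in the tdTom group, CDH1 was at 0.119, and the prostate gene KLK3 was at 1.12. The other lists held 1 marker above an FPKM of 5, CD68 at 323, with PTPRC and CD3E both under 1.

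The RAB mRNAs did not move as a block. Of the 45 members, 39 were lower with TTP and 6 were higher, against 80.8% lower among all 11606 protein-coding symbols. At least 2-fold lower were 7 members, which is 15.6% of the 45 beside 8.26% of all symbols, and at least 1.5-fold lower were 15, or 33.3% beside 22.9%. The median log2 ratio of TTP-tdTom over tdTom was -0.27 for the RAB genes and -0.24 for all symbols, so that the family's middle was close to that of all genes while its lower quartile reached -0.84 against -0.54. Measured against that median of all genes, 23 members lay below it and 22 above, and the direction of the 16 members between it and 0 turns when the values are centred on it. Among the 32 members with a mean FPKM of at least 5, all 32 were lower as deposited, beside 87.1% of all symbols at that level. The summed FPKM of the 45 went from 1731 to 1306, or 75.4% of the tdTom level, and RAB7A and RAB1B made up 48.7% of the tdTom sum. The sum over protein-coding symbols was also lower with TTP, and rescaling to equal sums adds 0.22 to every log2 ratio.

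**Figure D1:**
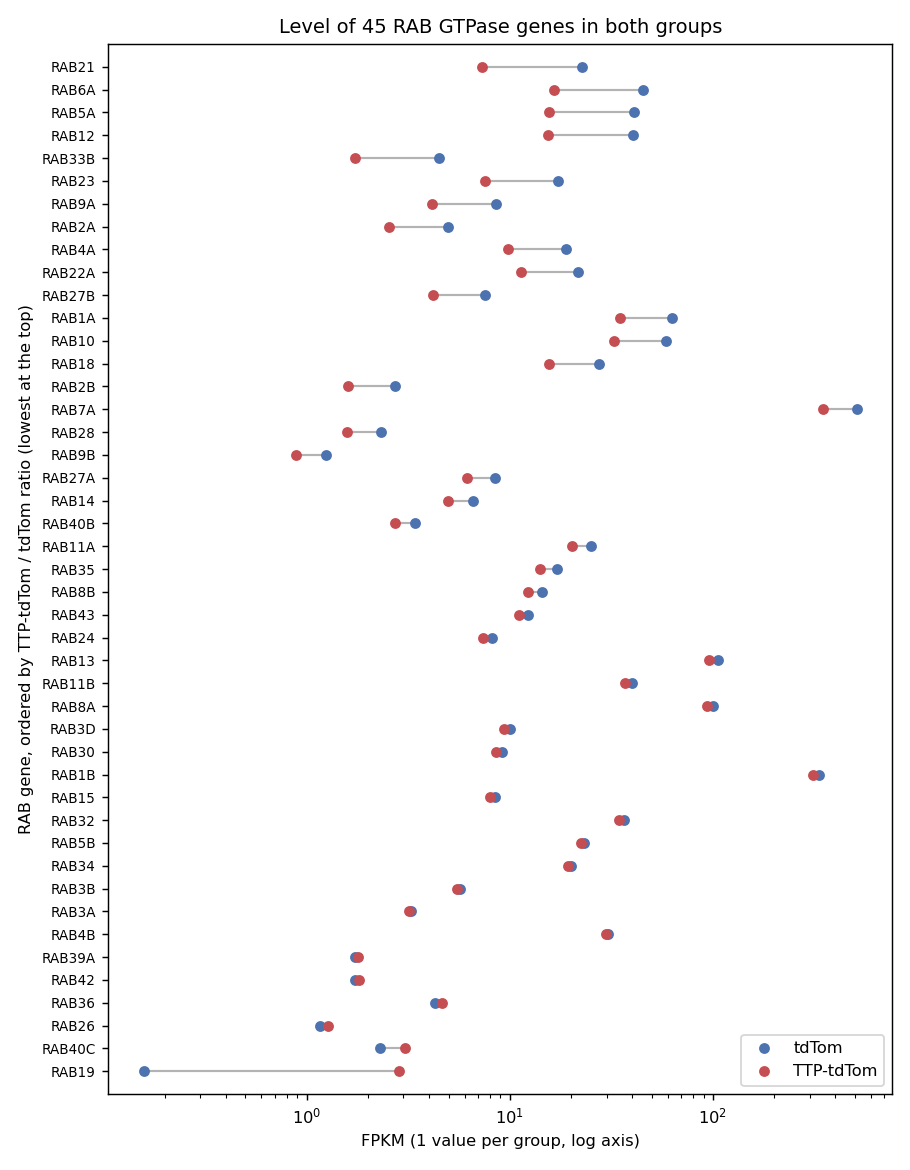
FPKM of each of the 45 RAB genes (horizontal log axis, 1 value per group) in the tdTom group (blue) and the TTP-tdTom group (red), ordered by their ratio. The upper 15 genes are at least 1.5-fold lower with TTP, from RAB21 (22.6 against 7.34) to RAB2B (2.73 against 1.59), while most of the lower ones overlie each other, and RAB19 at the bottom is read from a row of the opposite strand.

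The 7 members at least 2-fold lower act at several steps of traffic, and coordinates are those of the assembled loci in GRCh37. RAB21, which works on early endosomes in the uptake and return of integrins, had the lowest ratio of all members. It lies at chr12:72148609-72186662, and its FPKM was 22.6 without and 7.34 with the TTP transgene, a log2 ratio of -1.62 and 32.5% of the tdTom level. RAB6A, the main RAB of traffic within the Golgi and back to the ER (chr11:73386683-73472201), was at 45.5 and 16.5, with a log2 ratio of -1.46. RAB5A, which governs fusion of early endosomes (chr3:19988572-20053765), was at 41.1 and 15.6 (log2 ratio -1.40), or 38.0% of the tdTom level. Of all symbols 0.91% had a lower ratio than RAB21 and 2.1% a lower one than RAB5A, the highest of these 3. RAB12, which takes part in sorting towards lysosomes and in autophagy (chr18:8609443-8640475), had values of 40.4 and 15.5 and a log2 ratio of -1.38. RAB33B, a Golgi RAB that binds the autophagy protein ATG16L1 (chr4:140333298-140397069), was at 4.51 and 1.73 (log2 ratio -1.38), the least abundant of the 7. RAB23, which holds back Hedgehog signalling and works at the primary cilium (chr6:57051121-57087453), was at 17.4 and 7.57 (log2 ratio -1.20). RAB9A, which returns mannose 6-phosphate receptors from late endosomes to the Golgi (chrX:13706984-13728946), was at 8.60 and 4.14, with a log2 ratio of -1.05. With the values centred on the median of all symbols 5 of the 7 stayed at least 2-fold lower (11.1% of the 45, beside 3.70% of all symbols), and RAB23 (-0.96) and RAB9A (-0.81) did not.

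The longest 3′UTR annotated in GENCODE release 29 held the heptamer in 5 of these 7 genes. Of all symbols at least 2-fold lower, 947 had an annotated 3′UTR, and 301 of these held 0 copies. There were 6 copies in RAB21, whose 3′UTR is 14612 bases long, and 2 each in RAB6A, RAB12 and RAB33B. RAB5A had 1, and RAB23 and RAB9A had 0. Windows of 29 bases are shown for the 4 members with the lowest ratios that hold a copy, to show how the core sits in its surroundings. They are transcript sequence, 5′ to 3′, with T for U, and capitals mark TATTTAT. Coordinates are GRCh38, the build of that annotation, and differ from those of the table. The RAB21 window lies at chr12:71787817-71787845 on the plus strand, that of RAB6A at chr11:73677689-73677717 on the minus strand, that of RAB5A at chr3:19984233-19984261 on the plus strand, and that of RAB12 at chr18:8638790-8638818 on the plus strand.
RAB21: tgtgaagttagTATTTATgtgggggtggg
RAB6A: agtgtcttcatTATTTATattttacaaaa
RAB5A: gattctaaagtTATTTATgatgcttagcc
RAB12: tcatggaaggtTATTTATtaatgttacat
Each of the 4 windows holds 1 copy, and none of them is a run of overlapping copies. A match of these letters is a description of the 3′UTR and does not show that TTP binds there.

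A further 8 members were between 1.5-fold and 2-fold lower. RAB1A, needed for transport from the ER to the Golgi, had an FPKM of 62.7 in tdTom and 34.9 in TTP-tdTom cells (log2 ratio -0.84). RAB10, which moves vesicles to the plasma membrane in polarized cells and in response to insulin, was at 58.5 and 32.7 (log2 ratio -0.84). RAB18, known from the ER and lipid droplets, was at 27.6 and 15.6 (log2 ratio -0.82). The levels of these 3 genes in the TTP-tdTom group were between 55.8% and 56.7% of those in the tdTom group. RAB22A, an endosomal RAB close to RAB5, was at 21.7 and 11.4 (log2 ratio -0.93), and RAB4A, which returns cargo quickly from early endosomes to the surface, at 19.0 and 9.83 (log2 ratio -0.95). The locus of RAB4A also carries the symbol SPHAR, so that its value is that of both names. RAB27B, which docks secretory granules and exosomes, was at 7.58 and 4.21 (log2 ratio -0.85). RAB2A and RAB2B, which act between the ER and the Golgi, were at 4.98 and 2.54 (log2 ratio -0.97) and at 2.73 and 1.59 (log2 ratio -0.78), so that both genes of that number were lower. No member was between 1.5-fold and 2-fold higher. Of all symbols 1.74% were at least 1.5-fold higher and 0.775% at least 2-fold higher, so that few members would be in this range at those shares.

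By membrane, the RABs of early endosomes and of the ER and Golgi held the lowest medians. Of the 4 early endosomal members with a mean FPKM of at least 1, RAB21, RAB5A and RAB22A were at least 1.5-fold lower and RAB5B was at 23.2 and 22.4 (log2 ratio -0.051), and their median log2 ratio was -1.16. Of 11 ER and Golgi members 6 were at least 1.5-fold lower, with a median of -0.78. The other members of this group were RAB1B (332 and 313, log2 ratio -0.084), RAB30 (9.13 and 8.59, log2 ratio -0.088), RAB43 (12.3 and 11.1, log2 ratio -0.16, at a locus shared with ISY1), RAB36 (4.27 and 4.67, log2 ratio 0.13) and RAB19, described below. The 22.9% of all symbols at least 1.5-fold lower is the background for these counts, and groups of this size carry no test.

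Recycling RABs lay closer to the middle of all genes. RAB4A was the 1 member of 7 past 1.5-fold, and the median log2 ratio was -0.27. RAB11A, the central RAB of the recycling endosome, was at an FPKM of 25.3 and 20.3 (log2 ratio -0.32), RAB11B at 40.1 and 37.0 (log2 ratio -0.12), RAB14 at 6.57 and 5.00 (log2 ratio -0.39), and RAB35, which works in rapid recycling at the plasma membrane, at 17.1 and 14.2 (log2 ratio -0.27). RAB15 was at 8.47 and 8.02 (log2 ratio -0.079), and the locus that carries RAB4B together with MIA and EGLN2 at 30.4 and 29.8 (log2 ratio -0.026).

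Among the 9 RABs of late endosomes, lysosomes and autophagy the median was -0.15, with RAB12 and RAB9A at one end. RAB7A, the RAB that matures late endosomes and drives their fusion with lysosomes, was the most abundant member of the family, at an FPKM of 512 without and 347 with TTP. Its log2 ratio was -0.56, and in absolute FPKM no other member differed by as much. RAB9B was at 1.25 and 0.891 (log2 ratio -0.49), RAB24 at 8.22 and 7.40 (log2 ratio -0.15), RAB32 at 36.4 and 34.7 (log2 ratio -0.068) and RAB34 at 20.003 and 19.4 (log2 ratio -0.047), the last at a locus shared with NARR. RAB39A (1.72 and 1.80, log2 ratio 0.061) and RAB42 (1.74 and 1.81, log2 ratio 0.061) were slightly higher with TTP and low in both groups.

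The RABs of secretory vesicles and exocytosis had the median nearest to 0, -0.12, and 7 of the 10 lay above the median of all genes. RAB13, which serves tight junctions, was at 106 and 96.2 (log2 ratio -0.14), and RAB8A, which carries cargo to the plasma membrane and the cilium, at 99.8 and 93.2 (log2 ratio -0.099), at a locus shared with HSH2D. The RAB3 genes of regulated secretion were alike in this respect, with 3.25 and 3.18 (log2 ratio -0.030) for RAB3A, 5.68 and 5.51 (log2 ratio -0.042) for RAB3B and 9.98 and 9.37 (log2 ratio -0.092) for RAB3D. RAB8B was at 14.3 and 12.3 (log2 ratio -0.22), RAB27A at 8.50 and 6.20 (log2 ratio -0.46), and RAB26 at 1.16 and 1.28 (log2 ratio 0.14). RAB27B and RAB10 were the pair past 1.5-fold in this group. Of the 4 remaining members, RAB23 is given above, RAB28 was at 2.33 and 1.58 (log2 ratio -0.56), RAB40B at 3.41 and 2.71 (log2 ratio -0.33), and RAB40C, a subunit of a ubiquitin ligase, at 2.29 and 3.04, a log2 ratio of 0.40 and, after RAB19, the highest among the 45.

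**Figure D2:**
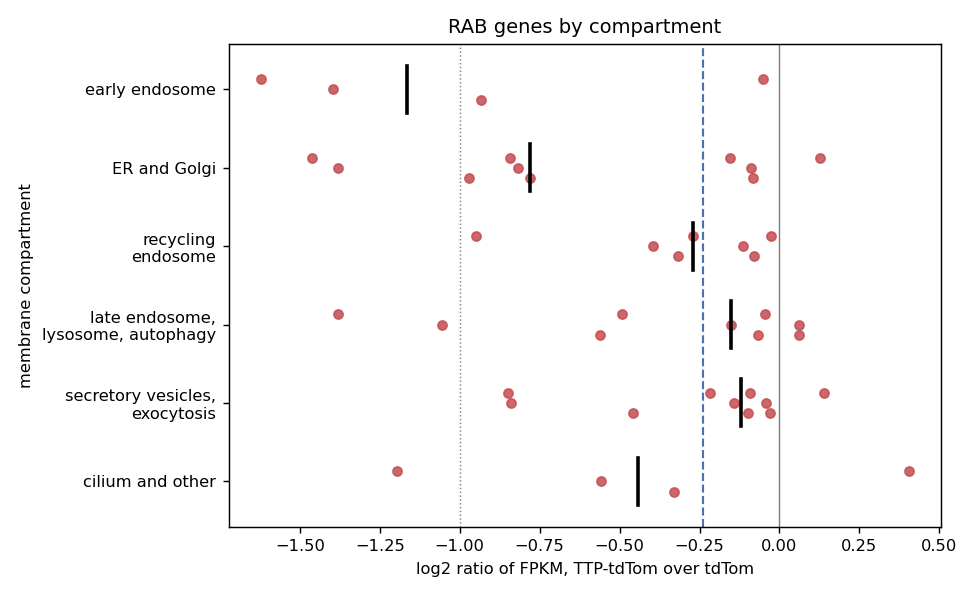
Log2 ratio of FPKM (TTP-tdTom over tdTom, horizontal axis) of the RAB genes with a mean FPKM of at least 1, by the membrane on which they are known to act. Points are genes, black bars are group medians (from -1.16 for early endosomes to -0.12 for secretory vesicles), the dashed blue line is the median of all protein-coding symbols, the dotted line is 2-fold lower, and RAB19 (4.18, ER and Golgi) lies outside the axis but is counted in its group's median.

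RAB genes with the same number and different letters encode close relatives, and several such pairs were split. Among the members with a mean FPKM of at least 1 there were 12 pairs from 10 numbers, with 66.5% to 78.8% identity between the coding sequences. RAB5A and RAB5B differed the most. RAB5A was at 38.0% of its tdTom level and RAB5B at 96.5%, a difference of -1.35 in log2 ratio between genes with 72.5% identity. RAB1A was at 55.8% and RAB1B, of 74.9% identity, at 94.4%. RAB4A was at 51.8% and the shared locus of RAB4B at 98.2%. RAB9A and RAB9B were at 48.2% and 71.1%, and RAB40B and RAB40C at 79.6% and 132%. In the pair of RAB27 the order was the other one, with RAB27A at 72.9% and RAB27B at 55.6%. The pairs that differed least were those of RAB3, where the log2 ratios of RAB3A and RAB3B differed by 0.013. In the RAB1 pair the gene with the higher level per length, RAB1B (332 against 62.7 FPKM in tdTom cells), had the ratio nearer to 0. In the pairs of RAB5, RAB9 and RAB2 it was the gene with the lower level, and the remaining pairs went both ways. Of the 9 pairs of an A and a B gene, A had the lower ratio in 6. Reads shared between near-identical copies can be divided among them by the counting, which could touch RAB6A and RAB6C, a closely related gene without introns that had an FPKM of 0.242 and 0.264.

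**Figure D3:**
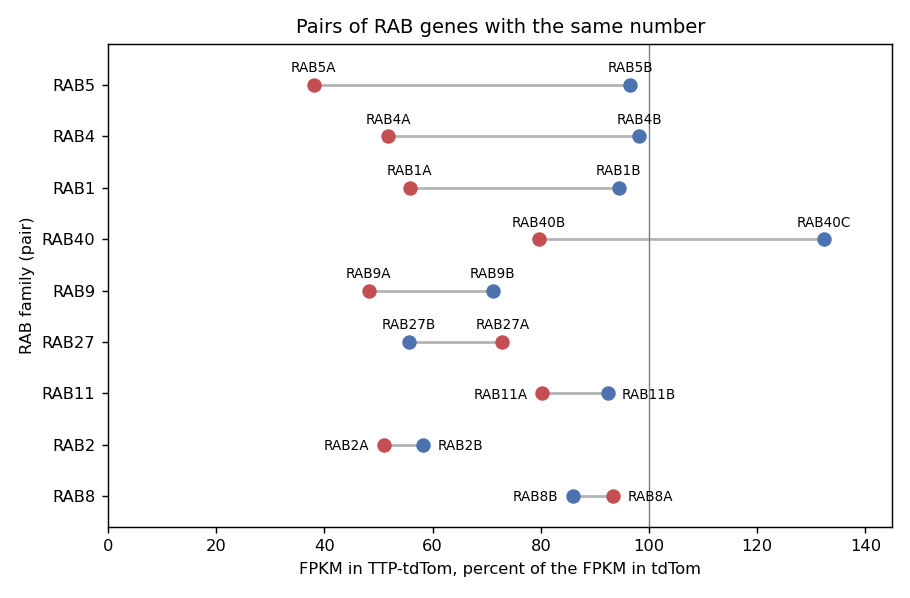
FPKM in the TTP-tdTom group as a percentage of that in the tdTom group (horizontal axis) for pairs of RAB genes with the same number, ordered by the difference within the pair; red is the earlier letter and blue the later one. RAB5, RAB4 and RAB1 show a gene near 38.0% to 55.8% and its relative above 94%, and the RAB4B point is a locus shared with MIA and EGLN2.

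The 3′UTRs of the family differed in composition along the same line. Of the 15 members at least 1.5-fold lower, 13 had a 3′UTR in the lowest tertile of GC content among expressed genes (up to 37.5%), 2 in the middle tertile and 0 in the highest tertile (over 48.3%). For all symbols at least 1.5-fold lower, 68.7% of 2623 with an annotated 3′UTR were in the lowest tertile. The 17 members in the highest tertile had a median log2 ratio of -0.079 and the 20 in the lowest tertile one of -0.85, while all genes had -0.11 and -0.55 in these tertiles. Across the 45 members Spearman's rank correlation between 3′UTR GC content and log2 ratio was 0.78, and it was 0.49 across 11433 symbols. Coding GC content gave 0.66 and 0.41. The 45 include RAB19, which is read from the opposite strand. Across the 39 members with a row of their own strand and an unshared locus, 3′UTR GC content gave 0.78 and coding GC content 0.65. The points share the same 6 libraries, genes are not independent replicates, and the part that base composition has in the ratios, in the cell or in library preparation, was not tested. Within the 12 pairs the gene with the lower ratio had the lower 3′UTR GC content in 11 and the longer 3′UTR in 9. It had more copies of the heptamer in 3. The copies were equal in the pairs of RAB5, RAB4 and RAB8, and in the remaining pairs the gene with the lower ratio had fewer. Among these remaining pairs are those of RAB3A, RAB3B and RAB3D, which reuse the same genes and differ in log2 ratio by 0.013 to 0.062. Which gene is the lower one therefore carries little weight there. The 1 pair with the opposite order in GC content, RAB3B and RAB3D, is of this kind. The pairs of RAB4 and RAB8 include loci shared with another gene.

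**Figure D4:**
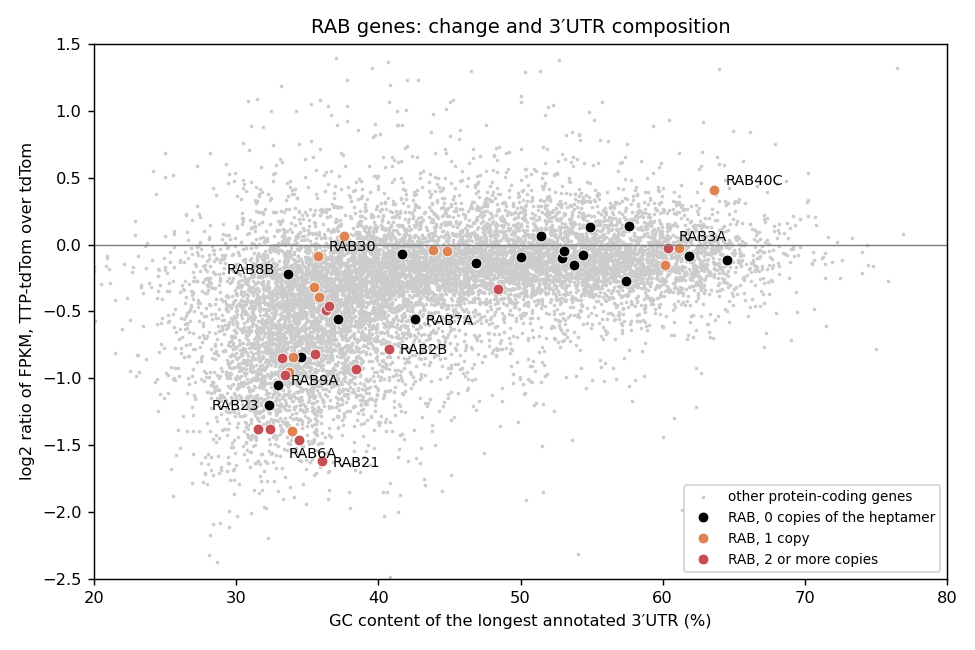
GC content of the longest annotated 3′UTR (horizontal axis, percent) against the log2 ratio of FPKM, TTP-tdTom over tdTom (vertical axis), for the RAB genes, coloured by copies of UAUUUAU, and for the other protein-coding genes (grey). RAB21, RAB6A, RAB23 and RAB9A lie at the lower left, RAB30 and RAB8B lie nearer to 0 at a similar GC content, and points outside the axes, RAB19 and part of the grey ones, are not drawn.

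The heptamer itself sorted the members less clearly. It was present in the 3′UTR of 25 of the 45 members (55.6%), against 36.1% of all symbols, and the RAB 3′UTRs were longer, with a median of 2176 bases against 1374. Per kilobase the difference was small, 0.366 copies against 0.325, and in the longest tertile of 3′UTRs 73.9% of RABs and 63.8% of all genes held it. Of the 15 members at least 1.5-fold lower 12 held the heptamer, and of the other 30 members 13. Over all symbols at least 1.5-fold lower 62.1% held it, beside 30.2% of those lower by less than 1.5-fold and 22.5% of those higher. Members with 2 or 3 copies had a median log2 ratio of -0.89, those with 1 copy -0.12, those with 0 copies -0.11 and the 3 members with 4 or more -0.33. For all symbols the medians were -0.57, -0.36, -0.18 and -0.63 in the same order. Within the lowest tertile of GC content the members with and without the heptamer had nearly the same median, -0.85 (15 genes) and -0.84 (5 genes), whereas over all symbols of that tertile they were -0.70 and -0.40. Spearman's rank correlation between the number of copies and the log2 ratio was -0.41 across the 45 members and -0.33 across all symbols. Across the 39 members with a row of their own strand and an unshared locus it was -0.39.

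Windows of other members with the most copies are shown to set runs of overlapping copies beside a single one. RAB40B has 4 copies in a single run (chr17:82657016-82657044, minus strand, GRCh38), RAB3A 3 of its 4 in a run (chr19:18197312-18197340, minus strand), and RAB2B 3 copies, of which 1 is shown (chr14:21459794-21459822, minus strand). RAB27A, not shown, also has 3 copies.
RAB40B: aattttgTATTTATTTATTTATTTATttt
RAB3A: attattgtagcTATTTATTTATTTATtga
RAB2B: tgaatgtgacaTATTTATtcctagttcca
RAB40B and RAB3A carry the overlapping form and also the nonamer TTATTTATT, 3 times each, and were at 79.6% and 98.0% of their tdTom levels. RAB21 holds the nonamer 2 times and was at 32.5%. The other 5 members with it hold it 1 time each, RAB12 at 38.4% (in the window shown), RAB27B at 55.6%, RAB27A at 72.9%, RAB3B at 97.1% and RAB4B at 98.2%, so that carriers stood at both ends of the family. The 3′UTRs of RAB40B and RAB3A have a GC content of 48.4% and 60.3%. RAB2B, with 0 nonamers and a GC content of 40.7%, was at 58.3%. The choice of 3′UTR matters for some of these counts, since the shortest annotated 3′UTR of RAB40B and of RAB6A held 0 copies. RAB23 and RAB9A, with 0 copies and a GC content of 32.3% and 32.9%, were at 43.6% and 48.2%. Over all members the nonamer was found in 8 (17.8%), and over all symbols in 9.40%.

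The genes that load, lipidate and read the RABs are set beside the shares of all symbols, 80.8% lower and 8.26% at least 2-fold lower. Of the 8 genes of prenylation and GDP dissociation, CHM, the escort protein REP1, was at an FPKM of 11.0 without and 4.45 with TTP, and RABGGTB, the catalytic subunit of the transferase, at 68.4 and 35.4 at a locus shared with MSH4. RABIF was at 11.0 and 9.86 and RABAC1 at 17.3 and 18.1, and 7 of the 8 were lower and 1 at least 2-fold lower (12.5%). Of 43 exchange factors 37 were lower (86.0%) and 5 at least 2-fold lower (11.6%), with a median log2 ratio of -0.41. TRAPPC6B, a subunit of the TRAPP complex that activates RAB1, was at 27.1 and 11.9, and CCZ1, of the exchange factor for RAB7, at 3.22 and 1.22, although CCZ1 has a near-identical copy with which reads can be shared. RIN3 (4.02 and 4.47) and HPS4 (7.31 and 7.97) were at the other end. Of 30 TBC domain activators 22 were lower (73.3%) and 1 at least 2-fold lower (3.33%), EVI5 at 9.54 and 3.71, and TBC1D8B followed at 3.81 and 2.04. TBC1D10A (2.40 and 3.00) and TBC1D10B (3.77 and 4.49) were higher, and the median of the list was -0.25.

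Of 39 effectors 36 were lower (92.3%) and 4 at least 2-fold lower (10.3%), with a median of -0.40. EEA1, the tether that RAB5 recruits to early endosomes, was at 22.6 and 8.95, a log2 ratio of -1.34. SYTL3, an effector of RAB27, was at 1.78 and 0.473. It reached the minimum through its tdTom value, so that nothing is read from its place among the 4. PLEKHM1 was at 10.3 and 11.5 and RPH3AL at 1.12 and 1.49. Of the 22 ARF and ARL genes, another family of small GTPases, 15 were lower (68.2%) and 4 at least 2-fold lower (18.2%), with a median of -0.36. No gene of these lists with a value above 0 in both groups and a mean FPKM of at least 1 was at least 2-fold higher, against 0.775% of all symbols. The effectors MYRIP and RAB11FIP4 were listed at 0 in tdTom cells and at 4.53 and 1.11 in TTP-tdTom cells. They fail the minimum through that 0, the strand of their rows is not reported here, and nothing is read from these values.

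**Figure D5:**
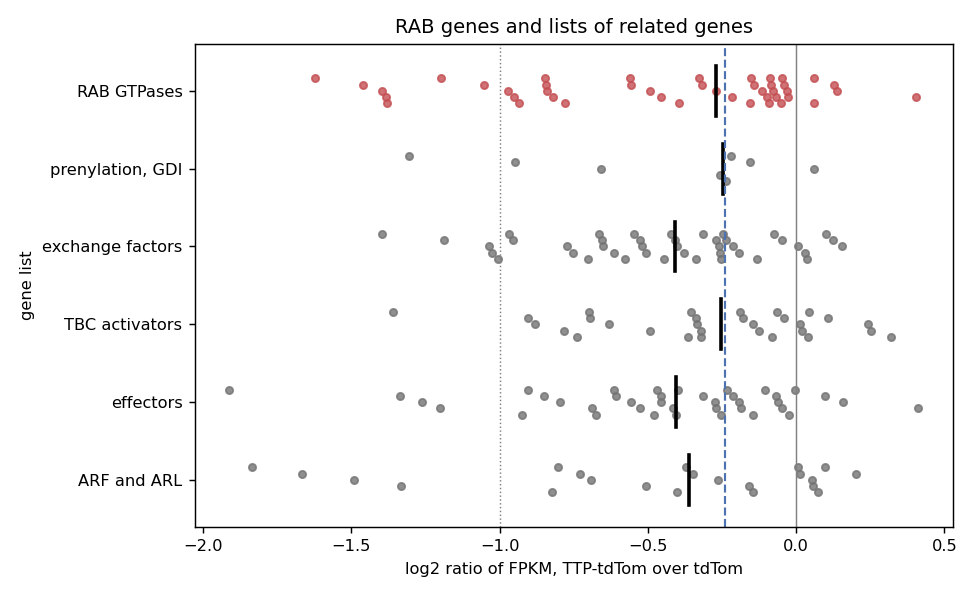
Log2 ratio of FPKM (TTP-tdTom over tdTom, horizontal axis) for the RAB genes (red) and for lists of related genes (grey), each point a gene with a mean FPKM of at least 1. Black bars are medians, from -0.41 for exchange factors to -0.25 for TBC domain activators and for prenylation, the dashed blue line is the median of all protein-coding symbols, the dotted line is 2-fold lower, and RAB19 lies outside the axis.

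The 1 member at least 2-fold higher (2.22%, beside 0.775% of all symbols), RAB19, reached the minimum through its TTP-tdTom value and rests on a row that does not lie on its own strand, so that nothing is read from this count. Loci in the table are numbered by chromosome and within it in blocks, the plus strand before the minus strand, a reading that held for 2190 of 2194 expressed genes with 3 or more RefSeq names. RAB19 is a plus-strand gene with 2 rows of 1 RefSeq name each. The row of its own strand had an FPKM of 0.0781 without and 0.105 with TTP, and the row of the other strand, which the rule takes because it is higher, 0.159 and 2.87 (log2 ratio 4.18). RAB38 (0.296 and 1.23) and RAB41 (0.153 and 1.82) are likewise read from the other strand, and their own-strand rows had 0.375 and 0.416, and 0.240 and 0.428. RAB41, with a mean FPKM of 0.986, lies just under the minimum of 1 and RAB9B, with 1.07, just above it. With rows of the gene's own strand alone, a choice made after seeing the data, 0 of 44 members were at least 2-fold higher (beside 0.298% of all symbols read in the same way) and 7 at least 2-fold lower (15.9%, beside 8.10%).

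The 14 members under the minimum were RAB3C, RAB5C, RAB6B, RAB6C, RAB17, RAB20, RAB25, RAB31, RAB33A, RAB37, RAB38, RAB39B, RAB40A and RAB41. None was listed at 0. RAB5C, the third RAB5 gene, was at 0.016 and 0.036 at its only row, far below RAB5A and RAB5B. Whether this row holds all reads of the gene was not tested, so that its level in the cells is not read from it. RAB25, the epithelial relative of RAB11, was at 0.376 and 0.290. RAB31 (0.729 and 0.869), RAB37 (0.716 and 0.811) and RAB6B (0.575 and 0.862) were also low in both groups, and their ratios are not read.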

How the data were processed

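Strand-specific RNA-Seq reads were aligned by the authors with TopHat2 2.0.13 to Hs37D5 (GRCh37 with decoy sequence), and the group comparison was made with Cufflinks 2.2.1, per the paper's methods and the submitters' processing notes. The authors' deposited table gives FPKM per group, 1 value for 3 samples, at 406165 assembled loci. It also holds their fold changes, p-values and q-values, which were not used. FPKM keeps no fragment counts: at loci of 348 bases without a symbol, 474 non-zero tdTom values were 474 different numbers. The number of fragments behind each value is therefore unknown, and no interval is given.

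Per symbol the row with most RefSeq names, then the highest FPKM sum, was used. The log2 ratio of TTP-tdTom over tdTom was taken without a pseudocount for symbols with a mean FPKM of at least 1 and above 0 in both groups. Names in the text follow a rule: every member past that minimum, and of each further list the 2 lowest and 2 highest ratios. Members and lists were chosen with earlier results of these data known. 3′UTRs and coding sequences came from GENCODE release 29, matched by symbol (all 45 expressed members, and 98.5% of expressed symbols). The longest 3′UTR was searched on the transcript strand with overlaps, and the longest coding sequences were aligned globally (match 1, mismatch -1, gap opening -4, extension -0.5). Functions were tested on simulated data. Python 3.11.15 with numpy 2.4.6, pandas 2.3.3, scipy 1.17.1, biopython 1.88 and matplotlib 3.10.9 was used. Identity is that of coding sequences in place of the planned proteins, and the planned comparisons of single samples were not run. A further list of genes, some members of another and some cell type markers are not reported here.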

Additional observations from a re-analysis of the deposited data

How the results depend on the processing

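No paired analysis was possible because the table holds 1 value per group. The fit with a replicate block and those leaving out a sample were not run for the same reason. The count of 7 members at least 2-fold lower stayed between 5 and 7 under the filters, pseudocounts, row choices and scalings tried, while the share of all symbols ranged from 3.70% (centred) to 9.41% (mean FPKM of at least 5), and was 15 at a 1.5-fold threshold (33.3%, beside 22.9%). The count of 1 member at least 2-fold higher was 5 without a filter on low values (8.47% of the 59, beside 6.56% of all symbols). It was 3 with the FPKM summed over all rows of a symbol (6.12%, beside 2.75%). At a mean FPKM of at least 5 it was 0, beside 0.0516% of all symbols. With rows of the gene's own strand, chosen after seeing the data, it was also 0, beside 0.298%. Of the 45 members, 23 rather than 39 were lower after centring on the median of all symbols (51.1%, beside 50% by construction) and likewise 23 after rescaling to the same sum (beside 52.7%), which adds 0.22 to every log2 ratio. The median log2 ratio of the family, -0.27, was -0.15 without a filter (all symbols -0.16), -0.29 at a mean FPKM of at least 5, -0.25 with a pseudocount of 1, -0.29 with the row of highest FPKM, -0.16 with summed rows (all symbols -0.22), -0.030 after centring and -0.052 after rescaling. In the settings without a filter and with summed rows it lay above that of all symbols and in the others below it. Chosen after seeing the data, it was -0.29 with own-strand rows and -0.32 without loci shared with another gene. The heptamer was in 25 of 45 longest 3′UTRs, in 14 of the shortest annotated ones, and the nonamer in 8. The number of fragments behind each FPKM is unknown, which limits members near an FPKM of 1 most.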

Other observations

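The members' rows on the other strand, among them those that stand for RAB19, RAB38 and RAB41 above, were 23 at 10 symbols, 15 of them higher with TTP (65.2%) and 8 lower, beside 57.2% higher of 6024 such rows of all protein-coding symbols within the same FPKM range. Their FPKM did not pass 3.31 in either group. Their sum was 18.0 without and 26.9 with TTP, beside 3731 and 4448 for the 6024 rows. Most of the 23 rows belonged to RAB15 and RAB37. The own-strand row of RAB15 was at an FPKM of 8.47 and 8.02, and its 6 other rows, 3 lower and 3 higher, had log2 ratios from -1.04 to 2.41. Other-strand rows of RAB37 that were above 0 in both groups had log2 ratios from -3.41 to 2.44. At RAB23 the other-strand row was lower with TTP (2.91 and 1.52) as was the gene's own (17.4 and 7.57), whereas at RAB6A it was higher (0.338 and 0.764) and the gene's own was lower (45.5 and 16.5). The authors' table pairs these rows with the symbol, and whether they are antisense transcripts was not tested.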
